A study of Mus musculus with 24 samples.

Results

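The transcripts described here are COX2, ATP6 and CYTB, which are made from the mitochondrial genome of the cell and not from the nucleus. The members were every probe annotated to 1 of these genes in the deposited table, which gave 1 probe for each gene, 3 of 13964 probes in all (3 of 8389 genes with a probe of a single symbol). They were ILMN_2426691 for COX2 (mt-Co2, not the prostaglandin synthase that shares the name), ILMN_2504686 for ATP6 (mt-Atp6) and ILMN_1239479 for CYTB (mt-Cytb). Probes of 4 further protein genes of the same genome, ND1, ND4L, ND4 and ND5, are given beside them, so that 7 of the 13 protein genes of mouse mitochondrial DNA were covered.

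Mitochondrial DNA is a small circle that carries only a few protein genes, all of them for subunits of the respiratory chain and of ATP synthase, while the other subunits come from nuclear genes. Nearly all of its protein genes lie on 1 strand and are transcribed together as a long polycistronic RNA, which is then cut at the tRNAs between the genes. Mature mRNAs cut from a shared precursor are known to differ in how long they last, so their levels need not be equal. In adipocytes the respiratory chain takes up electrons released in the oxidation of fatty acids and serves lipid storage by supplying ATP. Peroxisome proliferator-activated receptors (PPARs) are nuclear receptors that bind lipids and switch on genes of fat oxidation and fat storage, and their direct targets are nuclear genes.

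The arrays compared 3T3-L1 adipocytes, a mouse fibroblast line converted to fat cells with dexamethasone, IBMX and insulin, under 3 conditions of 6 arrays each. At day 11 after induction all cultures were kept in the same serum- and insulin-containing medium for 2 days with the vehicle DMSO, with GW610742, an agonist of PPARδ, or with GW347845, an agonist of PPARγ. The labels give 1 µM for GW610742 and 100 µM for GW347845, but the methods name nanomolar doses of GW347845 and a lower dose of GW610742 as well, and which dose the arrays used was not settled. RNA was hybridized to Illumina mouse WG-6 bead arrays, whose values were deposited on a log2 scale after variance stabilization. 3T3-L1 is a single cell line, so the arrays speak for 1 genotype. In such bulk RNA, fewer cells of a type and less RNA per cell cannot be told apart.

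Each agonist's arrays had been quantile normalized together with the 6 DMSO arrays, so the same DMSO hybridizations appear in 2 versions and the 24 columns hold 18 distinct hybridizations. The comparisons therefore share their controls, and the values of each are given side by side. The medians of all probes were 8.33 in the PPARδ set and 8.16 in the PPARγ set, and levels were compared only within a set. Of the 12 adipocyte markers looked for, 9 had values in the PPARγ set and 7 in the PPARδ set. Adipoq, the gene of adiponectin, had a mean of 13.05 in the DMSO cells of the PPARδ set. Over agonist and DMSO arrays of that set the means were 14.22 for Lpl, 13.22 for Adipoq, 11.02 for Cidec and 9.68 for Pparg. Plin1, Lep and Lipe were dim, at 7.24, 7.15 and 7.06. The preadipocyte marker Dlk1 was bright, at 14.46. Brightness depends on the probe as well, so these levels do not measure how far the cells had differentiated. No probe for Ucp1, the uncoupler of brown fat, was used here.

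The mitochondrial transcripts were among the most intense signals on the arrays. On the DMSO arrays only 38 to 69 probes were brighter than CYTB and 44 to 68 were brighter than ND4, with a highest value of 14.81 in the PPARδ set. COX2 had 443 to 610 brighter probes and ATP6 368 to 466. The ND4L and ND5 probes were dim, with only 26.8% to 43.5% and 23.3% to 33.1% of probes below them. Brightness depends on the probe as well as on the RNA, so these positions do not rank the transcripts themselves. Near the top of the scale a bead array can compress differences, and whether that affected CYTB and ND4 was not tested.

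With the PPARδ agonist the members moved in opposite directions. COX2 and ATP6 rose, while CYTB, from the other end of the same precursor, fell. In the limma comparison 8.19% of the 13718 probes rose and 8.93% fell (Benjamini-Hochberg adjusted p under 0.05), and 3.4% of probes had all 6 agonist arrays above all DMSO arrays, against 3.03% with all below. Of the members, 2 rose and 1 fell.

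COX2 encodes the subunit of complex IV (cytochrome c oxidase) that receives electrons from cytochrome c. Its log2 value was lowest at 12.35, with a median of 12.75 and a highest of 12.78, in the DMSO arrays. The agonist arrays ran from 12.95 through a median of 13.15 to 13.27. All 6 agonist arrays lay above all 6 controls, and the lowest control was replicate 5. The mean rose from 12.66 ± 0.17 to 13.12 ± 0.15 (SD, n = 6), which was 0.46 on the log2 scale (standard error 0.075, adjusted p = 0.00079) or 1.38-fold. This was the 100th largest rise among the 13718 probes.

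ATP6 encodes the subunit of ATP synthase that forms part of the proton channel. Its DMSO values had a lowest of 12.70, a median of 12.87 and a highest of 12.98. With the PPARδ agonist the lowest was 13.01, the median 13.22 and the highest 13.40. The groups again did not overlap, although the lowest agonist array, replicate 3, was close to the highest control. The mean went from 12.87 ± 0.093 to 13.21 ± 0.13 (SD, n = 6), a gain of 0.34 on the log2 scale (standard error 0.059, adjusted p = 0.0012) or 1.27-fold.

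CYTB encodes cytochrome b, the only mitochondrially encoded subunit of complex III. In DMSO cells its values ran from 14.37 to 14.52 with a median of 14.49. With the PPARδ agonist they ran from 14.19 to 14.37 with a median of 14.29. Of the 6 agonist arrays, 5 lay below every control, and replicate 4 met the lowest control. The mean fell from 14.47 ± 0.060 to 14.27 ± 0.073 (SD, n = 6), a log2 difference of -0.19 (standard error 0.044, adjusted p = 0.0070), which is 1.14-fold lower.

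**Figure D1:**
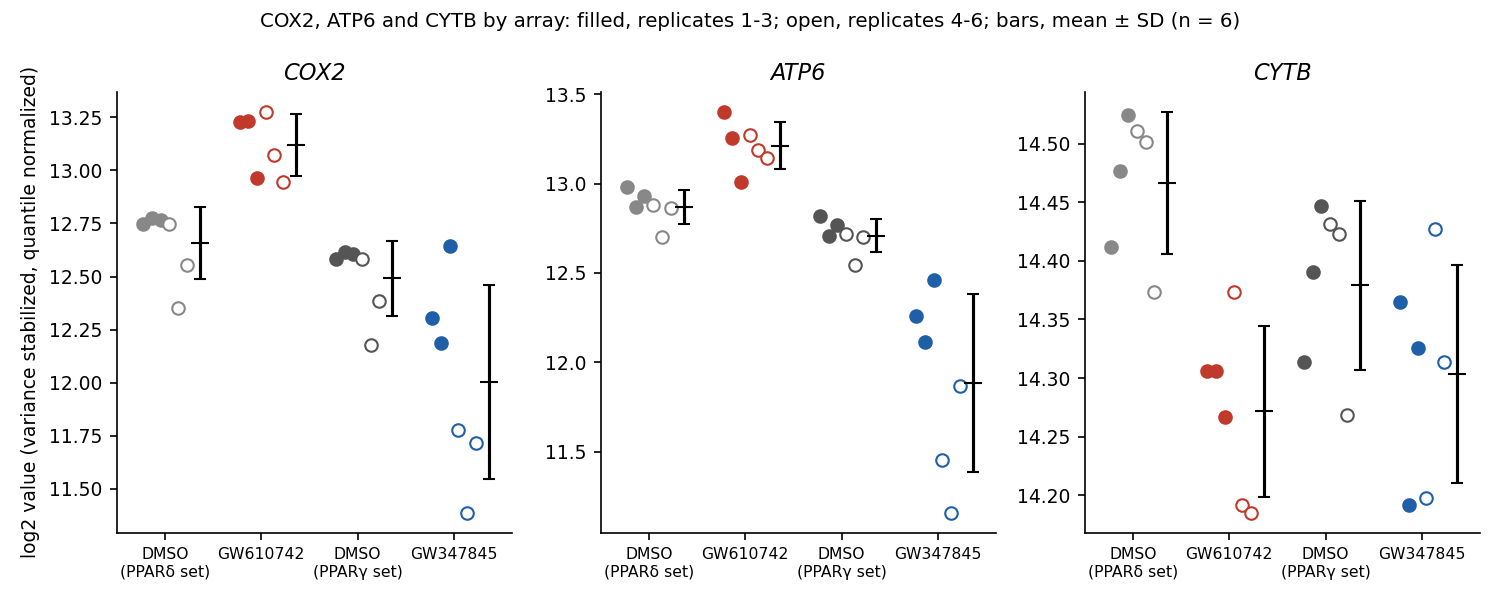
Log2 values (y axis) of COX2, ATP6 and CYTB on each array in the 4 groups (x axis), the DMSO arrays being shown in both normalizations, with filled points for replicates 1 to 3, open points for replicates 4 to 6 and bars for the mean ± SD (n = 6). With GW610742, COX2 and ATP6 lay above all controls and CYTB mostly below them, and with GW347845 ATP6 lay below all controls, down to 11.16.

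With the PPARγ agonist the order of the members changed. ATP6 and COX2 fell, and CYTB did not pass the test. In this comparison 10.4% of the 13755 probes rose and 13.5% fell, and 2.88% had all agonist arrays above all controls against 9.05% with all below. Of the members, 2 fell.

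The ATP6 controls in this normalization ranged from 12.54 through a median of 12.71 to 12.82. The PPARγ agonist arrays ranged from 11.16 through a median of 11.99 to 12.46. All 6 agonist arrays lay below all controls, with replicates 4, 5 and 6 the lowest. The mean fell from 12.71 ± 0.092 to 11.89 ± 0.50 (SD, n = 6), a log2 difference of -0.82 (standard error 0.17, adjusted p = 0.0025) or 1.77-fold lower, the 95th largest fall of 13755 probes.

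COX2 had a lowest control of 12.18, a median of 12.58 and a highest of 12.61. Under the PPARγ agonist the lowest array was 11.39, the median 11.98 and the highest 12.64. The groups overlapped: 3 agonist arrays lay below all controls, and replicate 3 lay above all of them. The mean fell from 12.49 ± 0.18 to 12.003 ± 0.46 (SD, n = 6), a log2 difference of -0.49 (standard error 0.17, adjusted p = 0.044) or 1.40-fold lower. This call was close to the threshold and was lost when any 1 of PPARγ agonist replicates 4, 5 and 6 or of DMSO replicates 1, 2, 3, 4 and 6 was left out (log2 fold change -0.51 to -0.37, adjusted p 0.063 to 0.086).

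CYTB had controls from 14.27 to 14.45 with a median of 14.41, and PPARγ agonist arrays from 14.19 to 14.43 with a median of 14.32. The ranges overlapped, with 2 agonist arrays, replicates 2 and 4, below all controls. The means were 14.38 ± 0.072 and 14.30 ± 0.093 (SD, n = 6), and the log2 fold change of -0.076 did not pass (standard error 0.051, adjusted p = 0.30, 95% confidence interval -0.18 to 0.033). The array that was lowest for ATP6 and COX2, replicate 5, was the highest of its group for CYTB.

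The responses to the agonists were then compared, each treated array being taken relative to the average of its controls. In that comparison 14.5% of the 13509 probes with values in both sets were higher with the PPARδ agonist and 14.9% lower. ATP6 was higher by 1.16 on the log2 scale (standard error 0.17, adjusted p = 0.00012), the 40th largest difference in that direction, and COX2 by 0.95 (standard error 0.16, adjusted p = 0.00042). The difference for CYTB was -0.12 and did not pass (standard error 0.051, adjusted p = 0.092). The error of the shared controls is not part of these values.

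Of the 4 other mitochondrial transcripts, 2 rose with the PPARδ agonist and 1 of these fell with the PPARγ agonist. ND1, ND4L, ND4 and ND5 all encode subunits of complex I, which takes electrons from NADH. ND1 was 13.53 to 13.80 in the DMSO arrays and 13.67 to 14.12 with the PPARδ agonist, where 5 of 6 arrays lay above all controls. It rose by 0.27 (standard error 0.065, adjusted p = 0.0086), with 0.11 (adjusted p = 0.52) in replicates 1 to 3 alone and 0.44 (adjusted p = 0.0019) in replicates 4 to 6. With the PPARγ agonist ND1 was 12.99 to 13.75 against 13.35 to 13.63, a log2 fold change of -0.12 (adjusted p = 0.49).

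ND4L was 7.36 to 8.02 in DMSO cells and 7.84 to 8.45 with the PPARδ agonist, a rise of 0.32 (standard error 0.10, adjusted p = 0.036). With any 1 of agonist replicates 1, 2, 4 and 5 or DMSO replicates 4, 5 and 6 left out, this rise was 0.23 to 0.33 (adjusted p 0.054 to 0.086), and it also did not pass with a robust variance prior (adjusted p = 0.10) or in replicates 1 to 3 or 4 to 6 alone (adjusted p = 0.15 and 0.061). With the PPARγ agonist ND4L was 6.70 to 7.65 against 7.25 to 7.87, a fall of 0.55 on the log2 scale (standard error 0.15, adjusted p = 0.013). On PPARγ agonist replicates 4 to 6 only 2.69% to 13.7% of probes were dimmer than ND4L, so it was near the floor of those arrays, and the size of its fall there is uncertain. In this transcript too the directions of the responses were opposite, and they differed by 0.87 (adjusted p = 0.00030).

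ND4 and ND5 passed in neither comparison. The log2 fold changes of ND4 were -0.0034 with the PPARδ agonist (95% confidence interval -0.11 to 0.10) and 0.043 with the PPARγ agonist (-0.059 to 0.14). Those of ND5 were 0.0031 (-0.11 to 0.11) and 0.14 (-0.047 to 0.32). ND5 was measured on a dim probe, and its interval in the PPARγ comparison reaches a change of the size of some that passed.

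Along the genome, in the RefSeq gene order, the measured genes run ND1, COX2, ATP6, ND4L, ND4, ND5, CYTB. COX2 and ATP6 are separated by ATP8 alone among protein genes, and CYTB is the last. The probes that rose with the PPARδ agonist were those of ND1, COX2, ATP6 and ND4L, the first 4 in this order, and CYTB, the last of the measured genes, was the one that fell. ND4L and ND4 are neighbours and are read from 1 shared mRNA, yet their probes did not behave alike. This pair was chosen after its values were seen. On the same array, ND4L minus ND4 rose by 0.32 with the PPARδ agonist (exact permutation test, 2-sided, p = 0.017) and fell by 0.59 with the PPARγ agonist (exact permutation test, 2-sided, p = 0.0043), with p adjusted over the 2 comparisons of 0.017 and 0.0087. The ND4L probe was dim, near the floor on PPARγ agonist replicates 4 to 6, and the ND4 probe was close to the brightest, and the part of this in the difference was not tested.

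**Figure D2:**
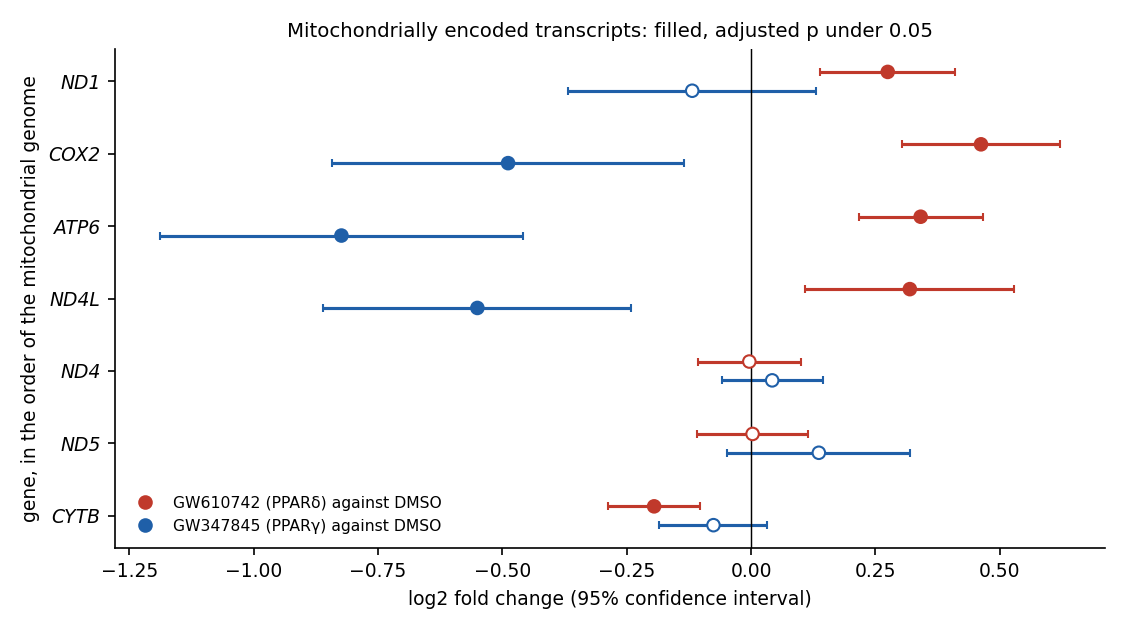
Log2 fold change (x axis) with its 95% confidence interval for the 7 mitochondrially encoded genes in genome order (y axis), red for GW610742 and blue for GW347845 against DMSO, filled where the adjusted p was under 0.05. ND1, COX2, ATP6 and ND4L rose with GW610742, ATP6 fell furthest with GW347845 (-0.82), and ND4 and ND5 passed the test with neither.

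Whether the members changed equally was tested on differences between 2 member probes of the same array, which cancel anything that moves both probes alike. The tests, 6 in all, were adjusted together, and the smallest p the design allows is 0.0022. With the PPARδ agonist COX2 gained 0.66 over CYTB and ATP6 gained 0.54 over CYTB (exact permutation tests, 2-sided, adjusted p = 0.0065 for both), and in both pairs all 6 agonist arrays lay above all controls. COX2 gained 0.12 over ATP6, which did not pass (exact permutation test, 2-sided, adjusted p = 0.060). So the measured changes of the COX2 and ATP6 probes differed from that of the CYTB probe by more than the spread between arrays. The CYTB probe lay near the top of the scale, where a bead array can compress differences, and the COX2 and ATP6 probes lay lower. The part of compression in the differences against CYTB was not tested. These tests do not give the sign of each change, which rests on the separate fit of each probe.

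With the PPARγ agonist ATP6 lost 0.75 against CYTB in the same kind of test, a difference of -0.75 with 5 of 6 agonist arrays below all controls (exact permutation test, 2-sided, adjusted p = 0.0087). ATP6 also fell further than COX2: COX2 minus ATP6 rose by 0.34, with 5 of 6 arrays above all controls (exact permutation test, 2-sided, adjusted p = 0.0097). The difference of COX2 against CYTB was -0.41 (exact permutation test, 2-sided, adjusted p = 0.078), and -0.54 (adjusted p = 0.018) without PPARγ agonist replicate 3. In the differences against the bright CYTB probe the part of compression was again not tested.

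Among the 6 arrays of a group, COX2 and ATP6 tended to be high on the same arrays. In the DMSO arrays Pearson's r was 0.87 and Spearman's rho 0.55 (exact permutation p = 0.036 and 0.27), but r was -0.43 without the 2 arrays farthest from the median of COX2, so the relation rested on those arrays. In the PPARδ agonist arrays r was 0.82 and rho 0.77 (exact permutation p = 0.035 and 0.10), and r was 0.56 without the 2 farthest. COX2 and CYTB, whose means moved apart with this agonist, also varied together within it (r = 0.81 and rho = 0.93, exact permutation p = 0.058 and 0.017, and r = 0.98 without the 2 farthest). None of the 9 relations computed passed after adjustment, with adjusted p for these 3 of 0.11, 0.11 and 0.13 for r and of 0.49, 0.28 and 0.075 for rho. In the PPARγ agonist arrays replicates 1 to 3 and 4 to 6 formed separate sets for COX2 and ATP6, so no common r is given.

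**Figure D3:**
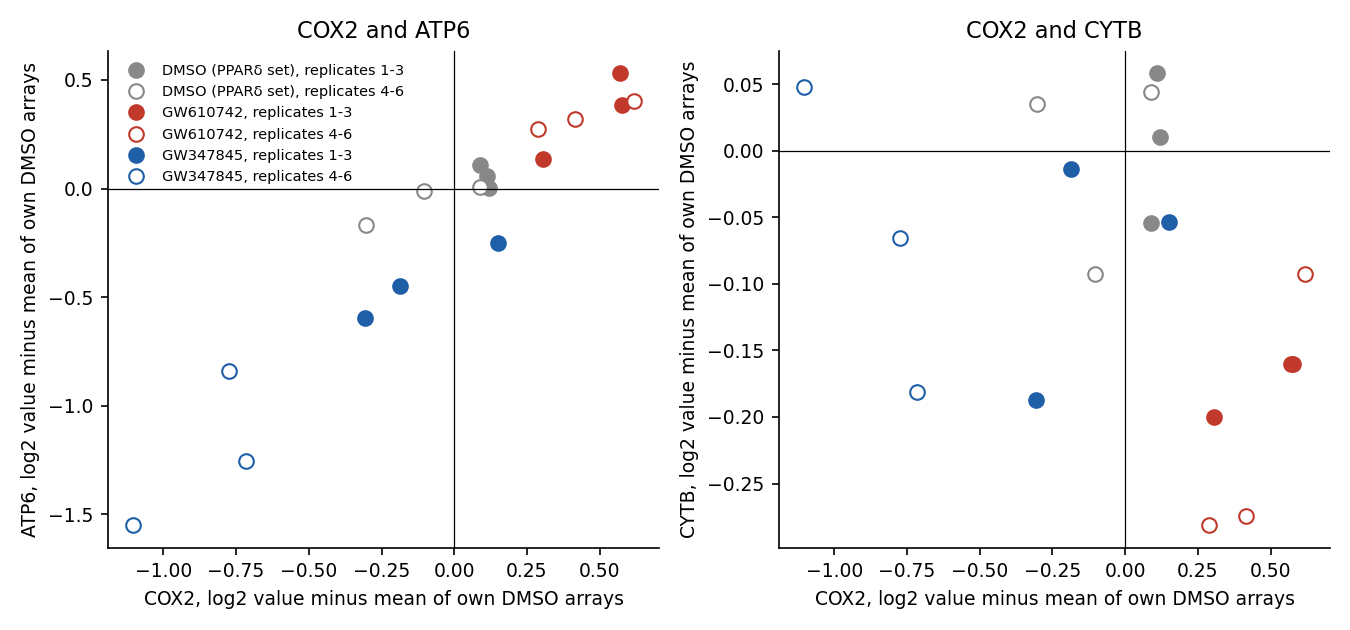
ATP6 (left) and CYTB (right) against COX2 on each array, both axes as log2 value minus the mean of the array's own DMSO set, grey for DMSO, red for GW610742 and blue for GW347845, filled for replicates 1 to 3 and open for 4 to 6. Over the groups together, which includes the differences between treatments, ATP6 was high on arrays with high COX2. CYTB was lower on the GW610742 arrays although COX2 was higher there. Within the groups no relation passed after adjustment.

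The PPARγ agonist arrays numbered 1 to 3 differed from those numbered 4 to 6. The labels name no batch for these numbers. Against the controls of the same numbers, ATP6 changed by -0.49 in replicates 1 to 3 and by -1.16 in replicates 4 to 6, and COX2 by -0.22 and -0.75. The agonist arrays of the 2 sets did not overlap for ND1, COX2, ATP6 and ND4L and overlapped for ND4, ND5 and CYTB. The DMSO arrays of the 2 sets also did not overlap for ND4L and ND4, and overlapped for COX2, ATP6 and CYTB. The share of all probes whose sets of replicates separated in this way was not computed. Whether the separation is particular to these transcripts was therefore not tested. ATP6 fell in both sets (adjusted p under 0.05 in each), whereas COX2 did not pass in replicates 1 to 3 (adjusted p = 0.099). For CYTB the values were -0.090 and -0.061.

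In the PPARδ agonist arrays replicates 1 to 3 overlapped replicates 4 to 6 for all 7 transcripts. COX2 rose by 0.38 in replicates 1 to 3 and by 0.55 in replicates 4 to 6, and ATP6 changed by 0.29 and 0.39, the first of these with an adjusted p of 0.11. CYTB changed by -0.18 and -0.21, with adjusted p of 0.16 and 0.064 at these smaller numbers. The sign of each member was the same in both sets.

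Cell composition markers were measured on the same arrays. The summed linear level of the 9 adipocyte markers in the PPARγ set, in units of 1000, was 45.4 to 53.6 in agonist replicates 1 to 3 and 23.7 to 29.8 in replicates 4 to 6, against 29.2 to 37.2 and 22.9 to 25.9 in the controls of those numbers. That of the 12 preadipocyte or fibroblast markers was 50.0 to 53.5 in agonist replicates 1 to 3, below every control, and 56.5 to 59.3 in replicates 4 to 6, against 54.1 to 59.3 in the controls. The 2 brown or beige markers with values, Cox7a1 and Cox8b, summed to 0.87 to 1.15 in agonist replicates 1 to 3 and to 0.30 to 0.37 in replicates 4 to 6, against 0.33 to 0.49 in controls 1 to 3 and 0.29 in each of controls 4 to 6. All 3 marker sums thus differed between the sets of replicates in which ATP6 and COX2 differed. The brown or beige sum rests on 2 of 6 listed markers, since Ucp1, Cidea, Dio2 and Elovl3 had no values. Cox7a1 and Cox8b were dim in the PPARγ set, with means below the median of all probes, and are also counted on the complex IV list. Their sum therefore does not show a brown or beige shift of the cells. Linear sums are led by their brightest genes and do not show that every marker shifted. In the PPARγ set the brightest adipocyte markers were Lpl and Adipoq (mean log2 values 14.21 and 13.06), with Cidec next at 11.09. The brightest fibroblast marker was Dlk1 (14.39). Cox7a1 rose by 0.66 with the PPARγ agonist (adjusted p = 0.020) and Cox8b was at 0.86 (adjusted p = 0.13). In the PPARδ set the adipocyte sums were 24.9 to 41.6 against 25.3 to 40.4 and the fibroblast sums 62.6 to 65.4 against 59.9 to 65.3. The adipocyte sums in replicates 1 to 3 and 4 to 6 were 35.2 to 36.9 and 24.9 to 41.6 with the agonist. In the controls of those numbers they were 32.1 to 40.4 and 25.3 to 28.2, which did not overlap. Of the adipocyte markers, 1 passed in each comparison (Cidec with the PPARδ and Fabp4 with the PPARγ agonist, both higher). Fabp4, a fatty acid carrier used here as an adipocyte marker, was read on a dim probe. Its mean in DMSO cells was 6.39, close to the lowest value of the PPARγ set, 6.25. The median log2 fold change of the adipocyte markers was 0.10 with the PPARδ and 0.30 with the PPARγ agonist. The number that rose depended on the fit, being 6 of 9 with the PPARγ agonist when the replicate number was a block, and with the PPARδ agonist Cidec (adjusted p = 0.0496) no longer passed under cyclic loess or with all probes of a gene averaged. Of the fibroblast markers, 2 rose with the PPARδ agonist (Col1a2 and S100a4) and 3 fell with the PPARγ agonist (these and Col3a1). The part of these markers in the changes of COX2 and ATP6 was not tested.

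**Figure D4:**
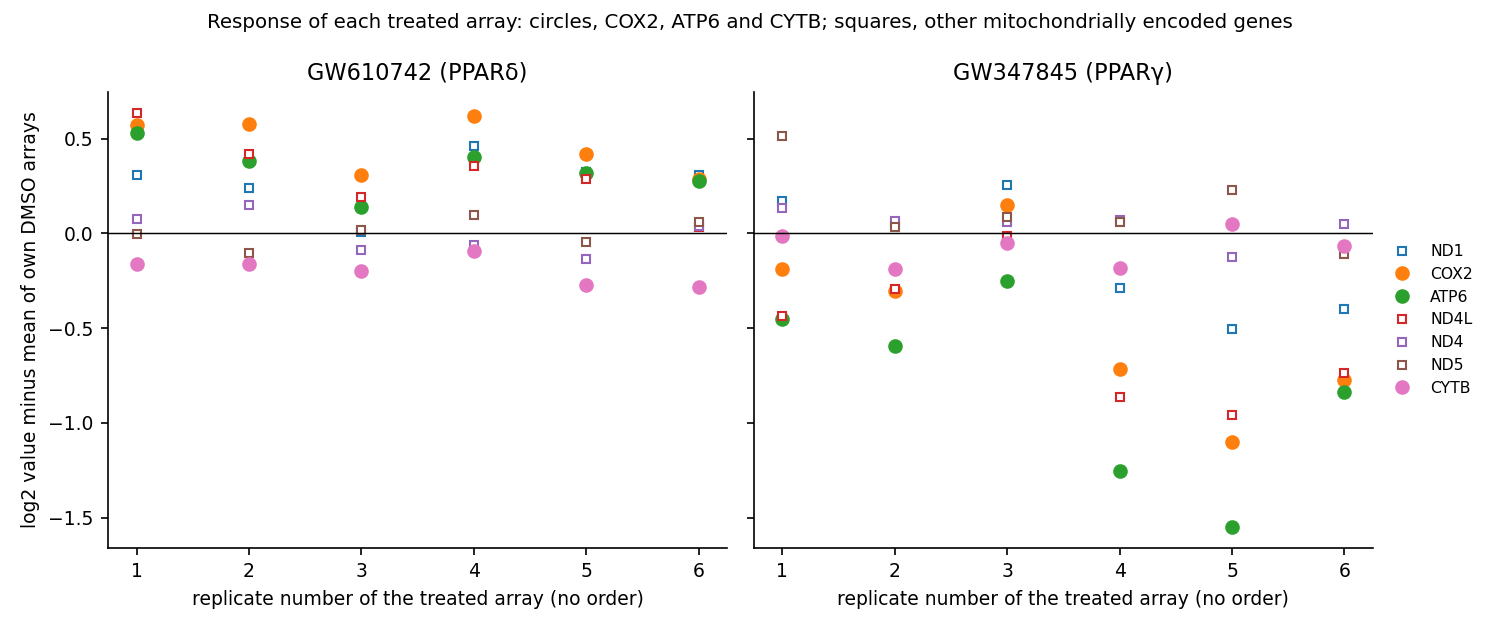
Log2 value minus the mean of the own DMSO arrays (y axis) for each treated array by its replicate number (x axis), with circles for COX2, ATP6 and CYTB and squares for the other mitochondrially encoded genes. With GW347845 the low values of ATP6, COX2, ND4L and ND1 were in replicates 4 to 6, down to -1.55 for ATP6, while with GW610742 the signs of COX2, ATP6 and CYTB held on every array.

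The nuclear partners of the members were counted from lists of 121 genes, each gene read on its brightest probe. In the PPARδ comparison 8.26% of 8289 genes rose and 8.69% fell, with a median log2 fold change of -0.012, and of the 98 listed genes with values 12 rose and 2 fell, with a median of 0.016. In the PPARγ comparison 10.2% of 8297 genes rose and 12.8% fell, with a median of 0.028, and of 99 listed genes 25 rose and 15 fell, with a median of 0.089. These counts describe the lists and were not tested against other genes.

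Complex III, to which CYTB belongs, is otherwise nuclear. Of its list, which includes the carrier cytochrome c and not only subunits, 8 genes had values in the PPARδ comparison. There 1 passed, a rise, and the median was 0.047, whereas CYTB fell. With the PPARγ agonist 4 of 9 genes passed, all higher, and all 9 were higher at an unadjusted p under 0.05, with a median of 0.28, whereas CYTB was at -0.076. Uqcrc1, a core subunit, changed by -0.039 with the PPARδ agonist and rose by 0.34 with the PPARγ agonist (adjusted p = 0.0086). The PPARδ rise was that of Cycs, the electron carrier cytochrome c, at 0.32 (adjusted p = 0.0019), and its brightest probe rose by 0.85 with the PPARγ agonist (adjusted p = 0.012), but another of its 3 probes fell by 0.21 there (adjusted p = 0.011).

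Complex IV, which holds COX2, had 2 of 13 genes that passed with the PPARδ agonist, both higher, with a median of 0.048. With the PPARγ agonist 6 rose and 3 fell, with a median of 0.17. Cox7a2 and Cox7b, small structural subunits, went the way of COX2 in both comparisons. Cox7a2 rose by 0.20 (adjusted p = 0.015) and fell by 0.53 on the log2 scale (adjusted p = 0.00079), and Cox7b rose by 0.24 (adjusted p = 0.0077) and fell by 0.46 (adjusted p = 0.0017). Of 15 assembly and copper delivery genes none passed with the PPARδ agonist by limma (2 at an unadjusted p under 0.05, both lower), while 3 rose and 3 fell with the PPARγ agonist, among them Cox11 (-0.47, adjusted p = 1.2e-05), which serves copper insertion, and Coa6 (-0.30, adjusted p = 0.0020), which acts in delivery of copper to COX2.

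ATP synthase had 3 of 17 nuclear genes that passed with the PPARδ agonist, all higher, and 3 higher and 4 lower with the PPARγ agonist, with medians of 0.021 and 0.071. Atp5a1, the alpha subunit of the ATP-forming head, had the largest rise of the list with the PPARδ agonist and its largest fall with the PPARγ agonist, 0.40 (adjusted p = 0.0016) and -0.75 (adjusted p = 3.1e-05), and its arrays did not overlap the controls in either comparison. Atp5e, the epsilon subunit, was at 0.021 and fell by 0.40 with the PPARγ agonist (adjusted p = 6.5e-05). ATP6 had values of the same signs as Atp5a1 and of similar size.

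**Figure D5:**
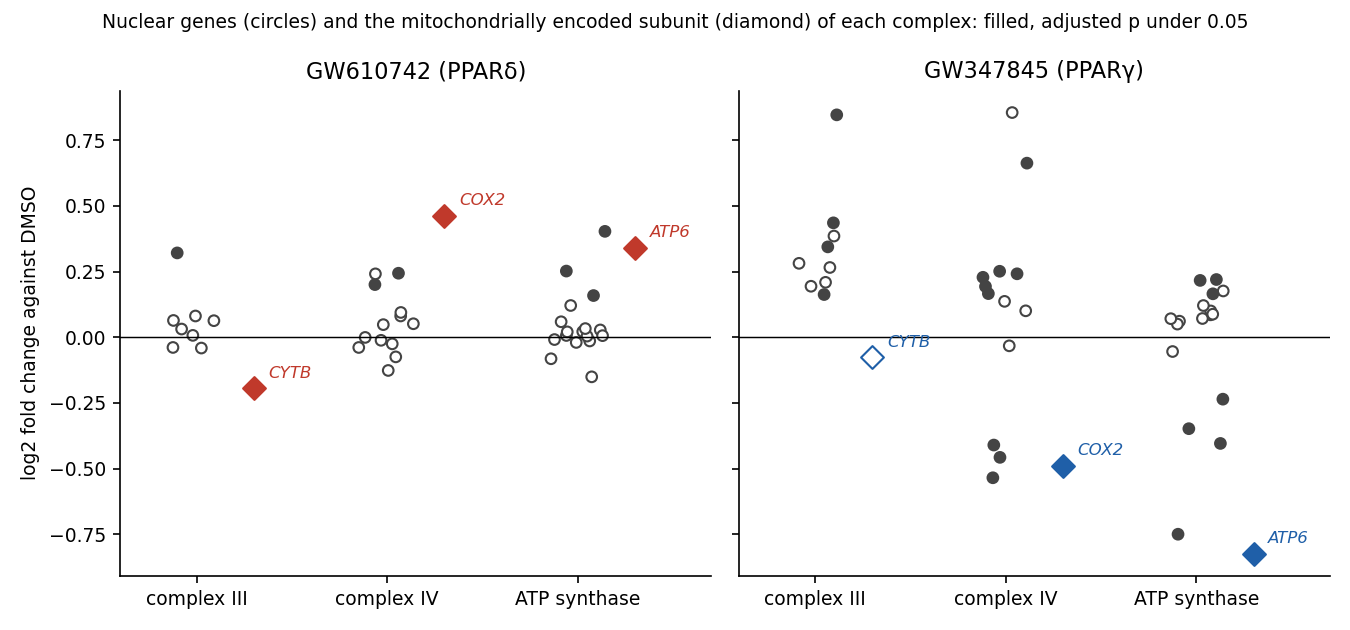
Log2 fold change against DMSO (y axis) of the nuclear genes of complex III, complex IV and ATP synthase (circles, x axis). Diamonds mark the mitochondrially encoded member of each complex, and symbols are filled where the adjusted p was under 0.05. The complex III circles include Cycs, the carrier cytochrome c, which is not a subunit and alone passed there with GW610742 (0.32). With GW610742 most nuclear genes lay near 0, CYTB below and COX2 and ATP6 above them, and with GW347845 the nuclear genes of complexes IV and ATP synthase spread to both sides, down to -0.75 for Atp5a1.

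Genes that copy and transcribe mitochondrial DNA gave few calls with the PPARδ agonist. Of 9 transcription genes none passed by limma (1 at an unadjusted p under 0.05, lower), with a median of -0.046, and of 12 DNA maintenance genes 1 rose and 1 fell. Tfam, which packages mitochondrial DNA and starts its transcription, was at -0.0031 (adjusted p = 0.97) and -0.11 (adjusted p = 0.16) with the PPARδ and the PPARγ agonist. The mitochondrial RNA polymerase Polrmt was at 0.093 (adjusted p = 0.16) and rose by 0.28 with the PPARγ agonist (adjusted p = 0.013), where COX2 and ATP6 fell. Its partner Tfb2m was at 0.058 and 0.15 (adjusted p = 0.43 and 0.051).

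In the PPARγ comparison 2 of the transcription genes rose and 1 fell. Tefm, an elongation factor, rose by 0.26 (adjusted p = 0.0062) and Mterf3, a repressor of mitochondrial transcription, fell by 0.40 (adjusted p = 6.8e-05). Among the DNA maintenance genes Ssbp1, the single-strand binding protein, rose by 0.30 and 0.28 on its brightest probe (adjusted p = 0.00013 and 0.0027), but not on its other probe (0.0022 and 0.086, adjusted p = 0.98 and 0.16). Dguok, a kinase that supplies deoxynucleotides, fell by 0.21 with the PPARδ agonist (adjusted p = 0.0060).

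The processing and stability of mitochondrial RNA gave 3 rises and 1 fall among 16 genes with the PPARδ agonist and 4 rises and 3 falls with the PPARγ agonist. Lrpprc, which stabilizes mitochondrial mRNAs, rose by 0.18 with the PPARδ agonist on its brighter probe (adjusted p = 0.0070) and was at 0.066 on the other (adjusted p = 0.39). In the PPARγ comparison these probes were at -0.089 (adjusted p = 0.25) and 0.14 (adjusted p = 0.039). Fastkd1, of a family of mitochondrial RNA-binding proteins, rose by 0.25 with the PPARδ agonist (adjusted p = 0.00096), and Rexo2, an exonuclease of short RNAs, fell by 0.48 with the PPARγ agonist (adjusted p = 9.6e-05).

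Coactivators and nuclear respiratory factors, which drive nuclear genes of the respiratory chain, had 2 of 9 genes higher in the PPARδ comparison and 1 higher and 1 lower with the PPARγ agonist. Ppargc1a was at -0.018 and 0.093 (adjusted p = 0.81 and 0.41) and Nrf1 at -0.076 and 0.13 (adjusted p = 0.26 and 0.11). Ppargc1b rose by 0.22 with the PPARδ agonist (adjusted p = 0.023) and was at 0.44 with the PPARγ agonist (adjusted p = 0.077). The Ppargc1a and Ppargc1b probes were dim, with means of 6.85 and 7.03 in the PPARδ set and 6.84 and 7.06 in the PPARγ set. The lowest values of these sets were 6.33 and 6.25, so the size of any change of these 2 genes is uncertain. Hcfc1, a transcriptional coregulator, rose by 0.21 (adjusted p = 0.020) and fell by 0.54 on the log2 scale (adjusted p = 4.4e-05).

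Genes whose values most resembled each member over the 18 arrays were found by Pearson's r among 8197 genes, on values relative to the own controls. For COX2 they were H2-K1, a class I histocompatibility gene (r = 0.97), ND4L (r = 0.96) and Me1, the cytosolic malic enzyme (r = 0.96), with ATP6 the next at r = 0.95. For ATP6 they were Cox7a2, Ppan, a nucleolar protein of ribosome formation, and 2300009A05Rik (r = 0.97 each). After each group was centred on its own mean, these r values were 0.87 to 0.93. This centring leaves in place the separation of PPARγ agonist replicates 1 to 3 from 4 to 6. Those arrays had the widest spread of any group, with an SD of 0.46 for COX2 and 0.50 for ATP6. The part of that separation in these r values was not tested. Me1 rose by 0.50 with the PPARδ agonist (adjusted p = 0.00013) and was at -0.25 with the PPARγ agonist (adjusted p = 0.15), and the other Ppan probe passed in neither comparison (0.0051 and 0.050, adjusted p = 0.95 and 0.55).

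CYTB had weaker neighbours, namely Mbd3, of a chromatin remodelling complex (r = 0.83), Clk1, a kinase of splicing factors (r = 0.82), and Bcl7b, of another chromatin remodelling complex (r = 0.77). Group-centred, these were 0.65, 0.51 and 0.50. The r of CYTB with COX2 was -0.36, and 0.018 when group-centred. All of these are descriptions over arrays that share their hybridization and normalization.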

How the data were processed

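RNA of 3T3-L1 cells was measured on Illumina mouse WG-6 arrays. The authors kept probes detected (p under 0.01) in at least 1 sample, used lumi to stabilize the variance, followed by quantile normalization of each agonist's arrays together with the controls, and the deposited values are log2 values in 24 columns. The methods name R/BioConductor, and the versions of lumi and limma and the genome build are not given in the sources used here. The values were used without further normalization. Probes were named from GEO's platform annotation (12157 with 1 symbol, 4 with several, 1803 with none) and gene order was taken from the RefSeq table of the mouse genome.

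Each comparison was fitted over all its probes with limma 3.58.1 in R 4.3.3 (lmFit, eBayes), with Benjamini-Hochberg adjustment over all probes and a threshold of 0.05. Differences between members were tested with exact permutation tests coded in Python 3.11.15. The ranks for Spearman's rho came from scipy 1.17.1, and figures were drawn with matplotlib 3.10.9. The fits were also run on simulated data with independent noise on each array. Those data held no split between replicates 1 to 3 and 4 to 6, so they do not cover it. The methods call the arrays independent hybridizations, so p-values measure the spread between these arrays, whose number (6 a group) limits the precision. The members and gene lists were chosen with earlier results of these data known. Named genes are the members, the 2 called genes per list that had the smallest adjusted p in either comparison, 7 fixed regulators, and the 3 genes most like each member. ND1, ND4L, ND4 and ND5, the marker genes and ATP6 as a neighbour of COX2 lie outside that rule and were named after their values were seen.

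Alternatives were a block for the replicate number, a robust variance prior with trend, array weights, median centring, cyclic loess, leaving out dim probes, all probes of a gene averaged, replicates 1 to 3 or 4 to 6 alone, and leaving out each array. No mitochondrial sequence was used here.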

Additional observations from a re-analysis of the deposited data

Results flagged for a closer look

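On 3 of 28 tested sets of 6 arrays, 1 array stood apart from the others by Dixon's ratio, at the 95% level, which chance gives in about 1 in 20 such sets. For ND4L this was DMSO replicate 5, the lowest at 7.36 in the PPARδ set and 7.25 in the PPARγ set, which are the same array normalized in each set. For ND4 it was PPARγ agonist replicate 5, the lowest at 14.25.

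The responses to the agonists differed, by the test of the difference itself over 13509 probes, for 4 of the 7 mitochondrial transcripts, all higher with the PPARδ agonist. Of all these probes 14.5% were higher with the PPARδ agonist and 14.9% lower. The differences in log2 fold change were 1.16 for ATP6, 0.95 for COX2, 0.87 for ND4L and 0.39 for ND1 (limma, adjusted p = 0.00012, 0.00042, 0.00030 and 0.026). For ND1 the adjusted p was 0.0502 to 0.056 when PPARδ agonist replicate 4 or 5 or PPARγ agonist replicate 4 or 5 was left out, with differences of 0.32 to 0.38.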

How the results depend on the processing

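The rises of COX2 and ATP6 and the fall of CYTB with the PPARδ agonist, the fall of ATP6 with the PPARγ agonist and the differences between the responses of the members kept their direction under every alternative run. COX2 with the PPARγ agonist kept its direction but lost the threshold with array weights (-0.37, adjusted p = 0.064), cyclic loess (-0.48, 0.064), a robust variance prior with trend (-0.49, 0.097) and replicates 1 to 3 alone (-0.22, 0.099), and leaving out 1 array gave -0.62 to -0.37. In replicates 1 to 3 alone, ATP6 (0.29, adjusted p = 0.11) and CYTB (-0.18, adjusted p = 0.16) did not pass with the PPARδ agonist, nor did CYTB in replicates 4 to 6 (-0.21, adjusted p = 0.064), where fewer arrays were used. COX2 minus ATP6 with the PPARδ agonist was 0.094 to 0.14 with 1 array left out, passing without DMSO replicate 2 or agonist replicate 6, and COX2 minus CYTB with the PPARγ agonist was -0.54 to -0.27.

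Signs turned only for values that had not passed. ND1 with the PPARγ agonist was 0.083 in replicates 1 to 3. ND4 with the PPARδ agonist was 0.0042 under cyclic loess, 0.0095 in replicates 1 to 3 and -0.034 to 0.023 with 1 array left out, and ND5 was -0.10 and -0.037 to 0.030. The cause was not tested.

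Replicate numbers were not taken to pair the samples, since not every same-numbered pair correlated over 0.1 (3 of 6 PPARδ and 5 of 6 PPARγ pairs did, and 1 and 3 agonist arrays correlated best with their own number). With the replicate block 2263, 3751 and 3890 probes passed in the PPARδ, PPARγ and difference fits, against 2349, 3282 and 3973 without it, and 283 and 1377 passed in the PPARδ comparison on replicates 1 to 3 and 4 to 6 alone, with fewer arrays. With the block the fall of COX2 with the PPARγ agonist passed clearly (-0.49, adjusted p = 0.0035). The block let COX2 minus ATP6 pass with the PPARδ agonist (0.12, adjusted p = 0.038). ND4L minus ND4 kept its size (0.32 and -0.59) but not its call (adjusted p = 0.063 in both comparisons), in a test of 6 pairs whose smallest exact p, 0.031, is that of the PPARγ comparison. On the complex III list, with cytochrome c, the block raised the genes that rose with the PPARγ agonist from 4 to 7. Among the coactivators it raised them from 1 to 3, which was 0 under cyclic loess. The other 9 counts of the nuclear lists that moved by over 1.5 times did so by 1 or 2 genes. Of the markers, the block raised the adipocyte genes that rose with the PPARγ agonist from 1 to 6 of 9 and the brown or beige genes from 1 to 2 of 2.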
